A study of Caenorhabditis elegans with 4 samples.

Results

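The regions described here are the ASH-2 ChIP-seq peaks that lie in the central parts of the 5 autosomes of Caenorhabditis elegans. A peak of the series list, the deposited list that names no single sample, was a member when the midpoint of its start and end fell in the middle 50% of chromosome I, II, III, IV or V of the WormBase WS220 build. This position rule used neither the width nor the score of a peak, and it found 476 of the 3009 peaks in the list. The other autosomal peaks, 2303 in number, are called arm peaks, 229 lay on the X chromosome and 1 on the mitochondrial genome. The centres run from 3768106 to 11304317 on I, from 3819836 to 11459509 on II, from 3445925 to 10337775 on III, from 4373448 to 13120345 on IV and from 5231037 to 15693112 on V, together 41.3 Mb.

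Chromatin came from whole worms of 1 strain, with genotype fem-2(b245)III, kept at 20 °C, labelled as hermaphrodite and as young adults that contain a germline, although the growth protocol speaks of gravid animals. The labels describe 2 ChIP samples, made with a polyclonal antibody raised in rabbit against ASH-2 and affinity-purified, and 2 input samples of sonicated DNA. Fixation was with 1% formaldehyde for 10 min in every sample, and each ChIP used 5 µg of antibody. All samples carry the fem-2 allele, so no wild-type worm enters any comparison, and whole worms do not tell germline from soma. Each ChIP replicate has 1 peak list, with 379 peaks in replicate 1 and 1901 in replicate 2. The input samples are not analysed here, the lists hold no read counts, and depth is therefore unknown. The labels do not say whether separate cultures were used, so differences between replicates may be technical.

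ASH-2 is a core subunit of the COMPASS-type complexes, which place methyl groups on lysine 4 of histone H3, a mark of the 5′ ends of active genes. In C. elegans such complexes act in germline and soma. fem-2 encodes a protein phosphatase of the sex-determination pathway that male development and sperm formation need. The autosome centres of this species are known as gene-dense and recombine little, whereas the arms hold more repeats and recombine more. Gene density was not measured here, since no annotation of the WS220 build was used, and for the same reason peaks are given by position and not by gene, and no DNA sequence is shown.

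ASH-2 peaks in the centres were fewer than on the arms, and larger shares of them were wide and high in the ranking. Centre peaks had a density of 11.5 per Mb against 55.8 on the arms, a difference that was not tested and is given as background. Their widths ran from 146 to 12340 bp with a median of 299.5 bp, and the middle 50% of them lay between 193 and 663 bp. Arm peaks had a median of 234 bp and an upper quartile of 353 bp. Of centre peaks, 78 of 476 were 1000 bp wide or more, 16.4% (95% Wilson interval 13.3 to 19.98%), against 143 of 2303 arm peaks, 6.21% (5.29 to 7.27%). The difference passed Fisher's exact test (two-sided, adjusted p = 1.53e-11), with centre above arm on 4 of 5 autosomes. The exception was chromosome III, where 1 of 68 centre peaks was that wide, 1.47%, against 6.46% of its arm peaks. All these tests treat peaks as independent although neighbouring peaks are not, and a p describes these lists, not a population of worms.

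A small number of wide peaks made up much of the covered length. Centre peaks covered 337 kb, 0.817% of the centres. The 34 peaks of 2 kb or more were 26 of 2 to 5 kb and 8 of at least 5 kb, and held 24.9% and 18.4% of that length, 43.3% together. The 140 peaks under 200 bp held 7.08% of it. On the arms the order was different, with peaks of 200 to 500 bp holding 35.1% of the covered length and those of at least 5 kb 8.76%.

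Wider peaks had higher scores. The deposited score of the series list is of an unnamed type and serves here only to rank peaks within that list, where it runs from 1.30 to 83.58. The median score was 5.41 among centre peaks and 4.56 among arm peaks, and centre peaks had a median rank of 1194.5 among 3009, where rank 1 is the highest score. The top 25% of the list, scores of 6.97 and above, took in 183 of 476 centre peaks, 38.4% (34.2 to 42.9%), and 485 of 2303 arm peaks, 21.1% (19.4 to 22.8%). This difference passed the test (Fisher's exact test, two-sided, adjusted p = 1.91e-14) and held on 4 of 5 autosomes, again with chromosome III as the exception, at 14.7% in the centre and 20.5% on the arms. The share in the top 25% was 49.6% on V, 43.0% on IV, 38.6% on I and 34.7% on II. In the top 10%, from a score of 12.8 upward, were 101 centre peaks, 21.2% of them (17.8 to 25.1%), against 6.99% of arm peaks. Across the 476 centre peaks the Spearman correlation of width and score was 0.684, and across the 2303 arm peaks it was 0.513, a description over peaks that share libraries and neighbours.

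**Figure D1:**
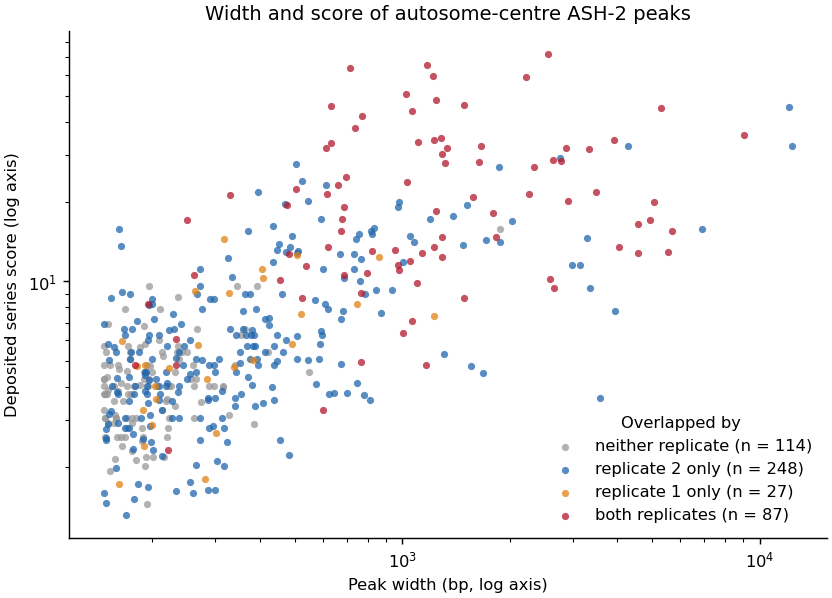
Width (bp) against the deposited series score for the 476 autosome-centre peaks, both on log axes, with 1 point per peak coloured by the replicate lists that overlap it. The 87 peaks overlapped by both replicates are 1104 bp wide and score 18.4 in the median, and the 114 overlapped by neither have medians of 188.5 bp and 4.04.

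Most centre peaks were also called in replicate 2, and few in replicate 1. How the replicates entered the series list is not known, so overlap with them may not be independent support. With a minimum overlap of 1 bp, 335 of 476 were overlapped by a peak of replicate 2, 70.4% (66.1 to 74.3%), and 114 by a peak of replicate 1, 23.9% (20.3 to 28.0%). Both replicates overlapped 87 of them (18.3%), replicate 2 alone 248 (52.1%), replicate 1 alone 27 (5.67%) and neither 114 (23.9%). The 27 are not as many separate places, since 5 of them, on V, met the same replicate 1 peak of 5672 bp. Of all centre peaks that replicate 1 overlapped, 61.4% shared their replicate 1 peak with another series peak, against 72.2% on the arms. In base pairs, replicate 2 covered 85.7% of the length of centre peaks and replicate 1 covered 42.7%.

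The share of series peaks overlapped by replicate 2 set centre peaks apart from arm peaks. Of the arm peaks, replicate 2 overlapped 26.0% (24.3 to 27.8%), a difference of 44.4 percentage points (Fisher's exact test, two-sided, adjusted p = 8.81e-73), and the centre was higher on 5 of 5 autosomes. With the middle 60% of each chromosome as centre the difference was 23.2 points (exact test, adjusted p = 8.61e-31). Centre values ran from 62.5% on II to 80.0% on IV and arm values from 21.9% on II to 28.9% on IV, so the 2 sets of values did not overlap. The share overlapped by neither replicate was 23.9% in the centres and 61.1% (59.1 to 63.1%) on the arms (Fisher's exact test, adjusted p = 2.22e-50), lower in the centre on 5 of 5 autosomes. Replicate 2 was not denser in the centres, where its own peaks covered 1.18% of the span against 1.59% of the arms. With replicate 2 left out, the share with no overlap is only the complement of the replicate 1 overlap, not a separate result. It was 76.1% in the centres and 78.6% on the arms, and the difference did not pass (Fisher's exact test, adjusted p = 0.267). The contrast in the share overlapped by neither thus rests on replicate 2.

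Replicate 1 gave no such contrast over the autosomes as a whole. Its overlap of 23.9% in the centres stood against 21.4% (19.7 to 23.1%) on the arms, and the difference did not pass the test (Fisher's exact test, adjusted p = 0.267). The autosomes went in opposite directions. On V, 36.3% of centre peaks (28.0 to 45.5%) were overlapped against 20.6% of arm peaks (17.3 to 24.4%), and on IV 30.4% (23.2 to 38.6%) against 13.2% (10.4 to 16.6%). On III it was 7.35% (3.18 to 16.1%) against 21.5% (18.2 to 25.3%), and on II 16.7% (9.80 to 26.9%) against 32.3% (28.2 to 36.7%). Chromosome I lay between them, with 17.0% in the centre and 18.9% on the arms. These shares and intervals count series peaks, and 1 replicate 1 peak can overlap several of them. The 41 overlapped centre peaks on IV and the 41 on V stood against 25 and 22 centre peaks of replicate 1. On IV, 15 of the 41 lay in 1 block of 62.9 kb that held 7 replicate 1 peaks. The difference between autosomes was not tested. In the same exact test without chromosome II, the pooled difference was 6.55 points and passed (adjusted p = 0.00453), without chromosome III it was 5.40 points and passed (adjusted p = 0.0252), and without IV or V it turned to the other sign, at -1.96 and -1.46 points, and did not pass.

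**Figure D2:**
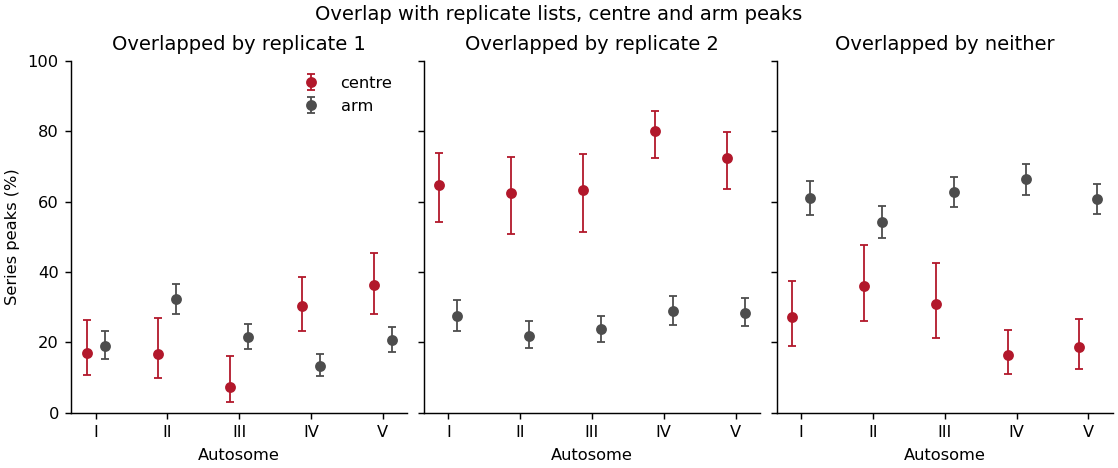
Share of series peaks (%) overlapped by replicate 1, by replicate 2 and by neither, for centre (red) and arm (grey) peaks of each autosome, with 95% Wilson intervals as bars. For replicate 2 the 5 centre values, from 62.5 to 80.0%, all lie above the 5 arm values, from 21.9 to 28.9%, whereas for replicate 1 the centre is higher on IV and V and lower on I, II and III.

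Because overlap went with score, centre and arm peaks were also compared in 4 score classes cut at the quartiles of the series list. Replicate 2 overlapped a larger share of centre than of arm peaks in each class. In the class with the highest scores it overlapped 166 of 183 centre peaks, 90.7% (85.6 to 94.1%), and 62.1% of 485 arm peaks (adjusted p = 5.78e-14 over the 8 tests, Fisher's exact test, two-sided). Scores were not alike within this class, since 101 of its 183 centre peaks (55.2%) and 161 of its 485 arm peaks (33.2%) were in the top 10% of the list. In that top 10%, replicate 2 overlapped 98.0% of centre and 95.7% of arm peaks, and in the rest of the class 81.7% and 45.4%, a split added after seeing the data and not tested. In the lowest class it overlapped 52 of 97 centre peaks, 53.6% (43.7 to 63.2%), and 13.4% of 536 arm peaks (exact test, adjusted p = 4.15e-16). For replicate 1 the shares in the highest class were 48.6% in the centres and 51.1% on the arms (exact test, adjusted p = 0.689). In the top 10% they were 59.4% and 80.1%, and in the rest of the class 35.4% and 36.7%, again without a test. In the next class down, replicate 1 overlapped 11.1% of centre and 20.5% of arm peaks, which passed the exact test at an adjusted p of 0.0444 but not at a minimum overlap of 50% of the shorter peak (adjusted p = 0.0598). In the 2 lower classes it overlapped 6.19% and 8.25% of centre peaks and 9.56% and 9.89% of arm peaks, and neither difference passed the exact test (adjusted p = 0.463 and 0.711).

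**Figure D3:**
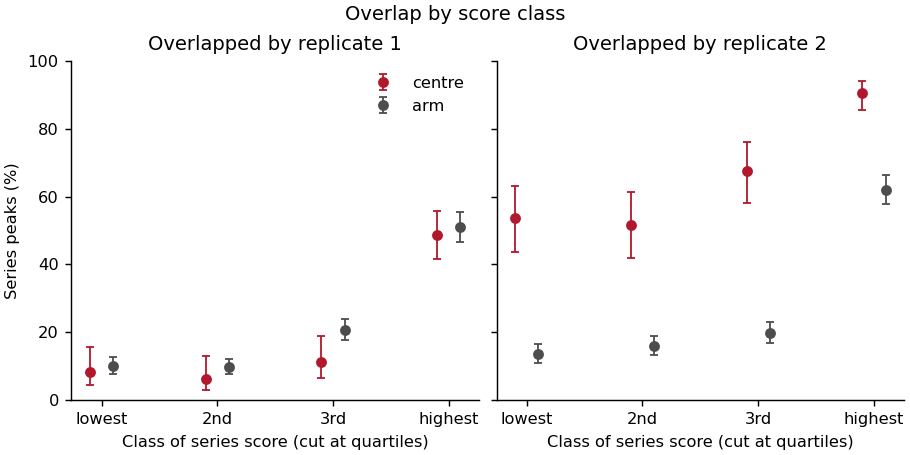
Share of series peaks (%) overlapped by replicate 1 (left) and replicate 2 (right) in 4 classes of the series score cut at its quartiles, for centre (red) and arm (grey) peaks, with 95% Wilson intervals as bars. Centre peaks lie above arm peaks in all 4 classes for replicate 2, from 53.6 against 13.4% in the lowest to 90.7 against 62.1% in the highest, and not for replicate 1.

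Overlap also went with width. Replicate 2 overlapped 45.7% of centre peaks under 200 bp, 68.3% of those of 200 to 500 bp, 93.3% of those of 500 to 1000 bp and 34 of 34 of those of 2 kb or more. On the arms the values were 10.1% under 200 bp, 23.6% from 200 to 500 bp and 56.3% from 500 to 1000 bp, and 48 of 48 arm peaks of 2 kb or more were overlapped. From 1 to 2 kb the values were 95.5% in the centres and 96.8% on the arms. In these values, which were not tested, centre and arm stood apart among peaks under 1 kb and not among those of 1 kb or more. For replicate 1 the arm value was the higher one in each width class, also without a test. It overlapped 6.43% of centre and 9.60% of arm peaks under 200 bp, 13.1% and 17.3% from 200 to 500 bp, 38.7% and 55.3% from 500 to 1000 bp, 68.2% and 76.8% from 1 to 2 kb, and 22 of 34 and 36 of 48 from 2 kb upward.

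Seen from the replicates, the series list held 72 of the 72 centre peaks and 279 of the 280 arm peaks of replicate 1, and 325 of the 564 centre peaks of replicate 2, 57.6% (53.5 to 61.6%). The same share for arm peaks of replicate 2 was 59.1%, and this difference did not pass the test (Fisher's exact test, adjusted p = 1). The replicates met each other more often here than on the arms in one direction, in values without a test: 62 of 72 centre peaks of replicate 1 were overlapped by replicate 2, 86.1% (76.3 to 92.3%), against 57.1% (51.3 to 62.8%) of 280 arm peaks. In the other direction, replicate 1 overlapped 19.9% of centre and 23.0% of arm peaks of replicate 2. The 37 centre peaks of replicate 2 with scores of 3100 or more, where its scores are largely tied, were all held by the series list, and 22 of them met replicate 1.

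The outlines of the peaks differed by list. The lists also name different callers, MACS v2 for the series list and MACS for the replicates, and the part of the caller was not tested. No replicate 1 peak was narrower than 1031 bp, whereas the minimum was 108 bp in replicate 2 and 146 bp in the series list. A series peak below 1031 bp can therefore meet only a wider replicate 1 peak. Where 1 centre peak met 1 replicate peak and no other, the replicate 2 peak was 1.15 times as wide in the median (interquartile range 0.967 to 1.54, n = 190) and the replicate 1 peak 1.57 times as wide (1.24 to 2.10, n = 44). On the arms these median width ratios were 1.02 for replicate 2 (n = 431) and 1.76 for replicate 1 (n = 136), without a test. In the centres, midpoints lay 42.5 bp apart in the median for replicate 2 and 93.8 bp for replicate 1. In 43 cases a centre peak of replicate 2 spanned 2 or more series peaks, up to 7, and in 28 cases a centre peak of replicate 1 did, up to 5.

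The X chromosome was set beside the centres with the same 6 shares. Replicate 2 overlapped 72.5% of the 229 X peaks (66.4 to 77.9%), replicate 1 overlapped 19.2% and neither 23.6%, and 36.7% of X peaks were in the top 25% of scores. None of the 6 comparisons of centre with X passed after adjustment (Fisher's exact test, two-sided, adjusted p from 0.238 to 1), which does not show that they are alike. The widest gap was in peaks of 1000 bp or more, 16.4% in the centres and 10.5% (7.14 to 15.1%) on the X, with an unadjusted exact p of 0.0396. The median width went the other way, at 299.5 bp in the centres and 318 bp on the X, without a test.

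The 10 strongest centre peaks were wide for centre peaks, 8 of them at 1000 bp or more, and 9 were called in both replicates. High overlap was not particular to strong centre peaks. In the top 10% of the list, replicate 2 overlapped 98.0% of centre and 95.7% of arm peaks, and replicate 1 overlapped 59.4% and 80.1%. The top centre peak, rank 3 of the whole list with a score of 71.86, ran over 2564 bp on chromosome IV from 5464625 to 5467188. Replicate 1 called it as 1 peak of 3221 bp and replicate 2 as 1 of 2322 bp, both with a score of 3100. On V, a peak of 1170 bp from 6071869 to 6073038 had a score of 65.24 and rank 6, and one of 1222 bp from 7912756 to 7913977 had 59.43 and rank 8. Both had the score of 3100 in replicate 2, and 227 and 530 in replicate 1, where the scores of the 2 lists may not be comparable. These 2 peaks stand beside broad sites described below.

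Chromosome II had 2 of the 10. The narrower spanned 712 bp from 6296616 to 6297327 with a score of 63.62, rank 7, and its replicate peaks were 1469 bp wide in replicate 1 and 601 bp in replicate 2. The wider spanned 2220 bp from 9631688 to 9633907 with a score of 59.24, rank 9. The narrower one is among the members that combine a high score with a width under 1 kb.

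The next 4 by score measured 1024 bp on IV from 8468557 to 8469580 (score 50.76), 1243 bp on I from 7868524 to 7869766 (48.15), 1488 bp on V from 5640069 to 5641556 (46.14) and 630 bp on I from 6647796 to 6648425 (45.89). In replicate 1 these 4 were single peaks of 1464 to 2323 bp with scores from 216 to 659. In replicate 2 the peak at 7868524 on I was called as 2 peaks and the other 3 as 1 each. The tenth was by far the widest, a peak of 12129 bp on V with a score of 45.34, and replicate 1 did not call it. Chromosome III gave none of the 10.

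Peaks of at least 5 kb numbered 8 in the centres, 3 on IV, 3 on V, 1 on I and 1 on II. Replicate 2 overlapped 8 of 8 and replicate 1 overlapped 5. Of the 11 arm peaks that wide, replicate 2 overlapped 11 and replicate 1 overlapped 8, in values without a test. The widest centre peak spanned 12340 bp on II from 9812457 to 9824796 with a score of 32.37. It was met by 3 peaks of replicate 2 and by none of replicate 1. With the peak of 4297 bp that ends just before it, from 9807913 to 9812209, and 1 more after it, it formed a stretch of 17398 bp, 97.3% of which replicate 2 covered. No base of it was covered in replicate 1. The peak of 12129 bp on V, from 6077153 to 6089281, was cut into 13 peaks in replicate 2 that together covered 11896 bp. Replicate 1 instead called 2 peaks just to its left, from 6070750 to 6074112 and from 6074748 to 6076815, and none within it.

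Other broad sites were called in all 3 lists. On V, a peak of 9060 bp from 7915978 to 7925037 was 1 peak of 9893 bp in replicate 1 and 1 of 9083 bp in replicate 2, with the score of 3100 in each. A peak of 5312 bp on V from 14585832 to 14591143 was 1 peak of 6495 bp in replicate 1 and 3 peaks in replicate 2. With the top site on IV, these are the 3 centre sites among the 9 replicate 1 peaks that carry the score of 3100. On I, by contrast, a peak of 6921 bp from 10212156 to 10219076 lay inside 1 replicate 2 peak of 11848 bp with the score of 3100 and met none in replicate 1.

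**Figure D4:**
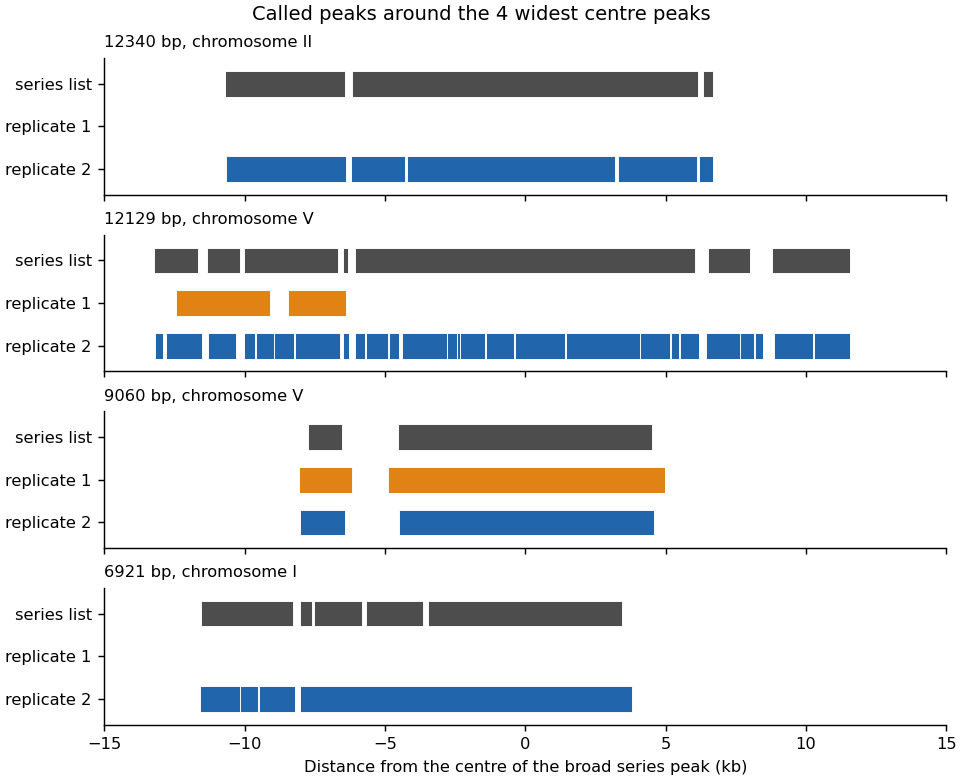
Peaks called in the series list, replicate 1 and replicate 2 within 15 kb of the centre of each of the 4 widest centre peaks; the horizontal axis is distance in kb and each bar is 1 called peak. Replicate 2 covers all 4 sites, as 1 to 13 peaks, whereas replicate 1 overlaps the 9060 bp peak on V and not the other 3.

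The remaining 3 peaks of at least 5 kb lay close together on chromosome IV and belonged to the fullest stretch of all centres. They measured 5534 bp from 6688898 to 6694431, 5672 bp from 6710835 to 6716506 and 5062 bp from 6723823 to 6728884, with scores of 12.95, 15.51 and 19.94, and each was overlapped by both replicates. With gaps of up to 10 kb allowed, 29 centre peaks lay in 1 block of 62.9 kb from 6668310 to 6731188, which is 21.5% of the centre peaks of IV. Peaks covered 45.3 kb of it. Replicate 2 overlapped 29 of the 29 and replicate 1 overlapped 15, with 34 peaks of replicate 2 and 7 of replicate 1 in the block. The highest score in the block, 19.94, had rank 154 of 3009.

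Clustering at short range was common. Of centre peaks, 269 of 476, 56.5% (52.0 to 60.9%), had another series peak within 1000 bp, and arm peaks had 55.1% (53.1 to 57.2%), a difference that did not pass the test (Fisher's exact test, two-sided, adjusted p = 0.613). This result depends on the distance. In the same exact test at 500 bp the centres were higher, 44.5 against 38.9% (adjusted p = 0.0283), and at 5000 bp they were lower, 69.1 against 77.6% (adjusted p = 0.000141). Isolated peaks were also more frequent by count, in values without a test: 72 centre peaks, 15.1%, had no other peak within 50 kb, against 2.13% of arm peaks. None of these shares takes account of peak density, which was 11.5 per Mb in the centres and 55.8 on the arms. They therefore do not show whether peaks cluster or stand alone beyond what their density gives.

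Joined across gaps of up to 1 kb, the 476 centre peaks formed 294 sites, of which 207 were single peaks, 50 were pairs and 37 held 3 or more, with 169 peaks in all. The largest site had 13 peaks over 21847 bp on IV, from 6682724 to 6704570. It was followed by 9 peaks over 21158 bp on IV from 6710031 to 6731188, both inside the block just described. A site of 9 peaks over 7996 bp on I, from 4540328 to 4548323, was covered to 96.9% by 4 peaks of replicate 2 and met none of replicate 1. A site of 7 peaks over 24820 bp on V, from 6069967 to 6094786, the longest of all, holds the broad peak of 12129 bp and was covered to 91.4% by replicate 2 and to 21.9% by replicate 1. A site of 7 peaks over 4352 bp on IV, from 11071419 to 11075770, was a single peak of 5149 bp in replicate 2 and met none in replicate 1.

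Joined sites were then taken by length. Of the 13 joined sites of 5 kb or more in the centres, replicate 2 overlapped 13 and replicate 1 overlapped 8. The 5 that replicate 1 lacked spanned 6655 to 17398 bp, and replicate 2 covered from 87.5 to 100% of each. Of 28 such sites on the arms, replicate 1 overlapped 23 and replicate 2 overlapped 24. Over all 294 centre sites, replicate 2 overlapped 66.3% and replicate 1 overlapped 22.1%. These counts were not tested.

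The centres differed among themselves. Density ran from 9.42 peaks per Mb on II and 9.87 on III through 10.8 on V and 11.7 on I to 15.4 on IV, with 72, 68, 113, 88 and 135 peaks. Median width was 381 bp on V and 362 bp on IV but 233.5 bp on III, and median score was 6.61 on V and 4.04 on III. Covered length followed, at 1.15% of the centre on IV, 1.00% on V, 0.761% on I, 0.644% on II and 0.359% on III. Replicate 1 had 25 peaks in the centre of IV, 22 on V, 11 on I, 10 on II and 4 on III, and replicate 2 had from 77 on III to 168 on V. Sites found in both replicates numbered 36 series peaks on IV and 31 on V, against 11 on II, 8 on I and 1 on III. The centre of III was therefore the lowest of the 5 in width, score, covered length and number of peaks found in both replicates, though not in peak number per Mb.

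Within each centre, peaks were gathered in a few places. Over the 37 whole 1 Mb bins that lie inside a centre, counts ran from 0 to 37 with a median of 8, with 11 bins at 5 or fewer and 7 at 20 or more. On I the fullest bin started at 10000001, where the series list had 24 peaks, replicate 1 had 2 and replicate 2 had 20, and the emptiest at 6000001, with 3, 1 and 6. On II they started at 4000001, with 27, 2 and 15 peaks in the same order, and at 7000001, with 1, 0 and 7. On III the bin at 7000001 was the fullest, with 26, 1 and 33 peaks, and the bin at 6000001 beside it held 1, 0 and 3. Of those 26, 14 peaks lay in 1 block of 41.9 kb from 7406106 to 7447963 in which peaks covered only 3.98 kb. Replicate 2 overlapped 14 of the 14 and replicate 1 none.

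On IV the bin at 6000001 was the fullest of all centres, with 37, 8 and 43 peaks in the same order, and the emptiest was the next one, at 7000001, with 3, 2 and 6. On V the fullest started at 6000001, with 19, 5 and 46, and the bin at 12000001 held no series peak, none of replicate 1 and 3 of replicate 2. Across the 37 bins, the Spearman correlation of series counts with replicate 2 counts was 0.858 and with replicate 1 counts 0.656, a description of lists from the same study. In 13 of the 37 bins replicate 1 had no peak, and replicate 2 had at least 1 in each.

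**Figure D5:**
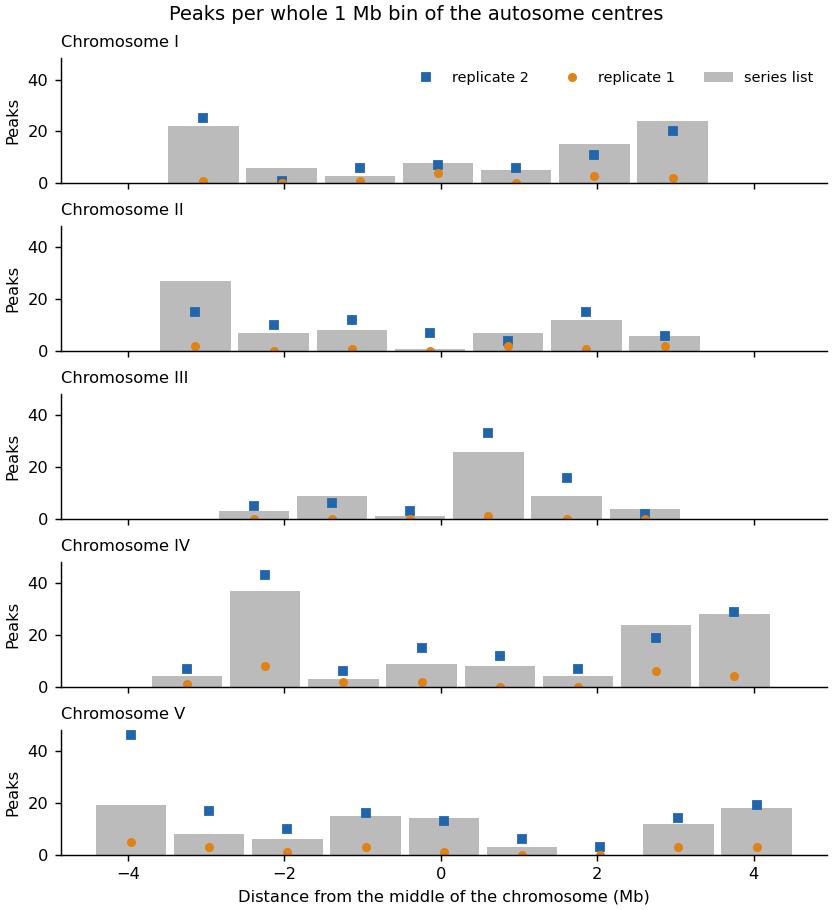
Peaks per whole 1 Mb bin of each autosome centre against the distance of the bin from the middle of the chromosome (Mb), with bars for the series list, squares for replicate 2 and circles for replicate 1. Counts of the series list run from 0 to 37 per bin with a median of 8, and the bar of 37 on IV stands beside bars of 4 and 3.

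Long stretches of the centres held no series peak. The longest on each autosome measured 2034 kb on V, from 11331168 to 13364833, then 1209 kb on II, 1006 kb on I, 916 kb on III and 726 kb on IV. Replicate 1 had no peak inside any of the 5, and replicate 2 had 2 to 6 in each. The inner part of the centres, the middle 50% of each, held 179 peaks at 8.67 per Mb and the outer part 297 at 14.4 per Mb. The outer part was denser on I, II, IV and V, and on III the inner part was, with 11.9 against 7.84 per Mb.

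Peaks near the limits of the centres were counted on both sides. Within 500 kb of the 10 borders there were 82 peaks inside and 156 outside, with more outside at 7 of the 10. The nearest peak inside lay 4.70 to 197.75 kb from the border and the nearest outside 3.54 to 584 kb. With the middle 60% taken as centre, the share of centre peaks overlapped by replicate 2 was 49.8% of 842, and with the middle 40% it was 73.0% of 330.

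The members overlapped by neither replicate were narrow and weak as a class. Their medians were 188.5 bp and a score of 4.04 over 114 peaks, and their median distance to the nearest replicate peak was 22.5 kb, against 7.49 kb for the 1408 such peaks on the arms. Replicate peaks were themselves sparser in the centres, at 13.7 against 26.6 per Mb on the arms for replicate 2 and 1.74 against 6.78 for replicate 1. A replicate peak lay within 1 kb of 20 of the 114, 17.5%, and of 16.5% of the 1408. Of the 101 centre peaks in the top 10% of scores, 99 were overlapped by replicate 2, 60 by replicate 1 and 1 by neither. That 1, singled out after its values were seen, was a peak of 1879 bp with a score of 15.76 on I from 5150435 to 5152313.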

How the data were processed

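The authors' peak lists were made from ChIP-seq reads. Per the file headers, positions follow WormBase WS220, and their source column names MACS v2 in the series list and MACS in the others. BWA and ce10 are named in the submitters' processing notes. Calling parameters, the control and how replicates entered the series list were not given in the sources used here. Scores were deposited by the authors with no named type and were used only as a rank within the series list.

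From these lists, centre, arm and X peaks were separated by midpoint, and overlap of 1 bp or more, gaps and joined sites were computed. Shares carry 95% Wilson intervals, which cover counting error only. Shares of centre and arm peaks were compared by Fisher's two-sided exact test with Benjamini-Hochberg adjustment over the 6 shares (overlap with replicate 1, replicate 2 or neither, top 25% of scores, width of 1000 bp or more, a neighbour within 1000 bp), over 8 tests by score class, and over 2 tests of replicate lists. The threshold was 0.05. The sites named are the 10 highest-scoring centre peaks, all of at least 5 kb, the 5 joined sites with most peaks and the fullest and emptiest whole 1 Mb bin of each centre; others were chosen after seeing their values. Members and tests were chosen with earlier results of these data known. The alternatives were other overlap, width, score and gap rules, joined sites in place of peaks, other centre limits, and each autosome or replicate left out. The functions were tested on simulated data. Computation used SciPy 1.17.1 with NumPy 2.4.6 and pandas 2.3.3 under Python 3.11.15, and figures used Matplotlib 3.10.9.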

Additional observations from a re-analysis of the deposited data

How the results depend on the processing

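Values are centre minus arm, in percentage points. Overlap with replicate 2 (23.2 to 45.9 over 13 alternatives), the top 25% of scores (10.2 to 21.2 over 11) and width of 1000 bp or more (5.06 to 17.4 over 12) kept direction and passed under every alternative run, joined sites included (35.9, 16.5 and 9.35). The low share with no replicate peak passed under 14 of 15. Leaving out 1 replicate gave -44.4 without replicate 1 and -2.59 without replicate 2, where only the replicate 1 overlap remains. Both are counted in the 15 but restate the overlap with the other replicate, sign reversed, and are not separate checks. Replicate 1 overlap, 2.59, was 6.55 without chromosome II and 5.40 without III, both past the threshold, and -1.96 without IV and -1.46 without V. In the second-highest score class it was -8.95 at a minimum overlap of 50% of the shorter peak, a setting added after seeing the data. The share with a close neighbour, 1.37, was 5.68 at 500 bp and 5.98 without chromosome II, both past the threshold, -8.52 at 5000 bp, -4.20 without IV, -0.801 without V and, in a setting added after seeing the data, -0.704 without the fullest centre bin. The causes were not tested. No paired analysis was possible because input samples are not analysed here and a replicate has only 1 list. Depth is unknown, so its part in the shorter list of replicate 1 was not tested.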

Other observations

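Replicate 2 had 239 centre peaks that the series list did not hold. Their median width was 284 bp, against 612 bp for the 325 it held, and their median score was 79.5 in the replicate 2 list, against 389. Of the 239, 7 were overlapped by replicate 1. The 3 with the highest scores, chosen after seeing the values, lay on IV from 12637963 to 12638620 (658 bp, score 505), on IV from 8575997 to 8578111 (2115 bp, score 434) and on II from 5097103 to 5097912 (810 bp, score 414). In the other direction, 1 of the 5-peak sites, on V from 9340323 to 9343478, lay within a single replicate 1 peak of 5672 bp with a score of 1071 and met no peak of replicate 2.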
